A study of Olea europaea with 12 samples.

Results

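The comparison set olive fruit flesh at 21 weeks after flowering (21 WAF) against olive fruit flesh at 17 WAF, gene by gene. Both groups came from field-grown trees of Olea europaea, cultivar Koroneiki, an oil cultivar. They had been picked in Western Greece in a single growing season under ordinary local orchard care, with no treatment. The members are 6 of the 12 RNA-seq libraries of the study, 3 labelled A to C at 21 WAF and 3 labelled A to C at 17 WAF. The other libraries, 3 at 26 WAF and 3 at 30 WAF, entered the estimate of the spread and are given as values where a gene is followed over all 4 ages. All groups share cultivar, field, season and tissue, which the labels call mesocarp, the fleshy layer between the skin and the stone. Of 51008 genes listed, 26131 had an FPKM (fragments per kilobase of transcript, scaled to the size of the library) of at least 1 in 3 or more libraries and were tested. The labels do not say whether A, B and C at an age came from separate trees or separate harvests, so the p-values measure the spread between these libraries, which may be technical.

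The olive is a drupe, and its flesh is both a green tissue and an oil store. Plastids of the flesh hold chlorophyll and carry out photosynthesis while the fruit is green. The same plastids build fatty acids, mainly oleic acid, that are joined to glycerol in the endoplasmic reticulum and kept as oil. In the same period the flesh makes squalene, triterpene acids such as oleanolic acid and maslinic acid, and the bitter secoiridoid oleuropein. Its cells enlarge inside a wall of cellulose, xyloglucan and pectin under a skin covered by cutin and wax.

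The 6 libraries separated by age. On log2(FPKM + 1) of the tested genes the first principal component held 81.9% of the variance of the 6 libraries and separated the ages, and the second held 5.25%. The correlation of libraries across genes was 0.995 within each age and 0.966 to 0.968 between the ages, a description in which genes are not independent replicates. Summed FPKM ran from 823131 to 840404 at 21 WAF, against 790578 to 804227 at 17 WAF. The most abundant gene took 5% to 5.08% of the sum at 21 WAF, against 1.52% to 1.65% at 17 WAF.

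With limma on log2(FPKM + 1) and a Benjamini-Hochberg adjusted p under 0.05, 5808 genes were higher at 21 WAF and 9378 were lower, while 10945 did not pass the test. These are 22.2% and 35.9% of the genes tested, 58.1% together, and they are the background against which each gene list below is read. Most of the called differences were small. A difference of 2-fold or more was reached by 477 of the higher genes, 1.83% of those tested, and by 585 of the lower ones, 2.24%. The libraries of both ages did not overlap in 25.3% of tested genes with 21 WAF higher and in 39.7% with 21 WAF lower. At 4-fold the counts were 52 higher and 32 lower, and at 16-fold 1 and 0. The median log2 change over all tested genes was -0.0685, with a median SE of 0.0671 per gene. The split between the directions depends on the scale. As deposited, 38.2% of the called genes were higher at 21 WAF. After each library was set to the same summed FPKM the counts were 4840 higher and 10913 lower, 30.7% higher, and with median-of-ratios scaling, 7430 and 7332, 50.3% higher. The median gene moved with them, to -0.1215 and 0.

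**Figure D1:**
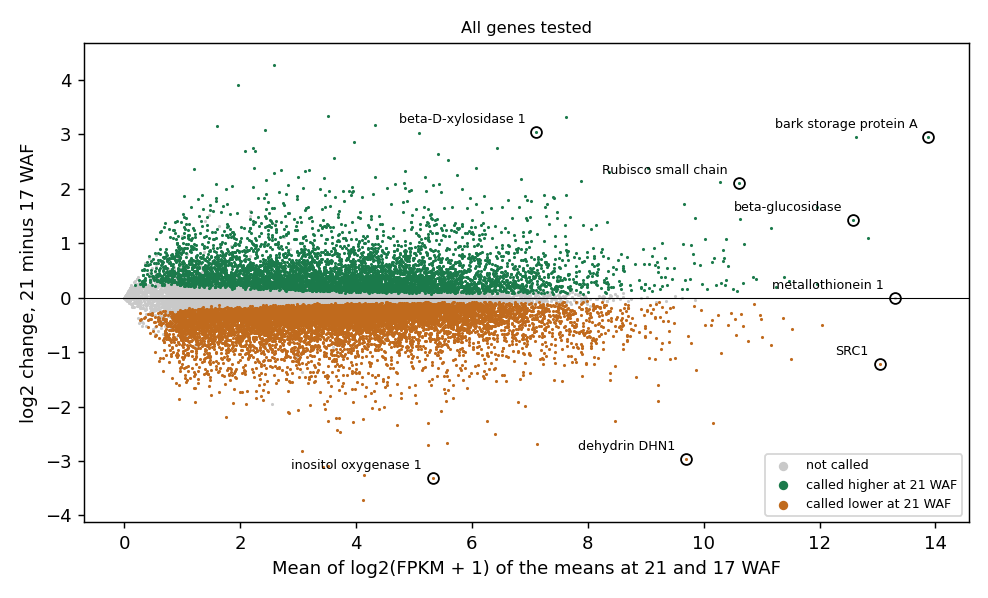
Each point is 1 of the 26131 tested genes. The x axis is the mean of log2(FPKM + 1) over both ages and the y axis the log2 change, 21 minus 17 WAF, with called genes in green (higher) and orange (lower) and genes not called in grey. Most called genes lie within 1 unit of 0, and the 2 bark storage protein genes stand far above genes of like abundance.

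The most abundant transcripts of the flesh changed in rank. At 21 WAF the leading gene was LOC111384066, annotated as bark storage protein A, a family named for the nitrogen reserve proteins that poplar lays down in its bark in autumn. It had 42656, 41569.6 and 41179.8 FPKM at 21 WAF, against 5347, 5542 and 5360.4 FPKM at 17 WAF (log2 change 2.95, SE 0.029, adjusted p = 4.9e-15). The other abundant copy, LOC111399394, had 17929.6, 17427 and 17255 FPKM at 21 WAF, against 2202, 2283 and 2323 FPKM at 17 WAF (log2 change 2.95, SE 0.033, adjusted p = 9.5e-15). For both genes each library at 21 WAF was several times above each at 17 WAF, and the libraries of an age lay close together. The 2 genes together took 7.09% to 7.21% of summed FPKM at 21 WAF, against 0.955% to 0.973% at 17 WAF. The rest of the sum was 764696 to 779818 FPKM at 21 WAF, against 783029 to 796402 FPKM at 17 WAF. At the later ages both genes took less, 3.05% to 3.08% at 26 WAF and 0.740% to 0.748% at 30 WAF. A further listed copy, LOC111405691, stayed near the filter, with 1.88 FPKM at 21 WAF against 1.66 FPKM at 17 WAF (adjusted p = 0.37). So did LOC111387434, with 2.11, 1.19 and 1.62 FPKM at 21 WAF, against 1.11, 1.08 and 1.16 FPKM at 17 WAF. It was named after its values were seen. Of these 4 listed genes, 3 were called higher as deposited, and 2 with each library set to the same summed FPKM. The 2 abundant copies may share reads, so the split between them is uncertain and their sum is the firmer value.

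**Figure D2:**
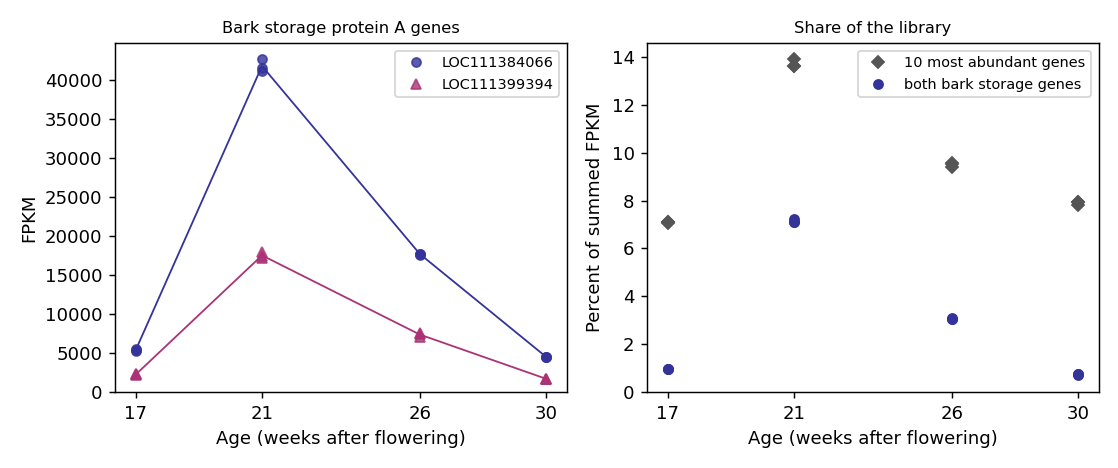
Left, FPKM of both abundant bark storage protein A genes in every library at 17, 21, 26 and 30 WAF, with lines through the means. Right, the percent of summed FPKM taken by these 2 genes and by the 10 most abundant genes of each library. Both genes stand highest at 21 WAF, where they take 7.09% to 7.21% of the sum.

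Next in abundance at 21 WAF came metallothionein LOC111369652, a small cysteine-rich metal-binding protein, with 10018 FPKM at 21 WAF against 10132 FPKM at 17 WAF. Its log2 change of -0.015 did not pass the test (adjusted p = 0.74). The beta-glucosidase LOC111404214 had 9672, 10181 and 10173 FPKM at 21 WAF, against 3817, 3680.2 and 3686 FPKM at 17 WAF. Enzymes of this family split glucose from glycosides, and this gene rose in every library beyond the range at 17 WAF (log2 change 1.42, SE 0.037, adjusted p = 7.3e-12). The most abundant gene at 17 WAF was LOC111387830, annotated as SRC1 after a cold-regulated soybean gene, and it fell to 5498 FPKM at 21 WAF against 12814 FPKM at 17 WAF (log2 change -1.22, SE 0.067, adjusted p = 6.6e-09). Phosphoprotein ECPP44 LOC111367581, a dehydrin-type protein first described in carrot, fell as well, to 1958 FPKM at 21 WAF against 4277 FPKM at 17 WAF (log2 change -1.13, adjusted p = 1.7e-11). The latex-type protein kirola LOC111410001, named for a kiwifruit protein, differed little, with 4343 FPKM at 21 WAF against 3673 FPKM at 17 WAF (log2 change 0.24, adjusted p = 5e-06). Thaumatin-type protein LOC111407528, of a pathogenesis-related family, rose to 2325 FPKM at 21 WAF against 1169 FPKM at 17 WAF (log2 change 0.99, adjusted p = 2.8e-07). Among the defensins, small antimicrobial peptides, LOC111386030 rose to 3578 FPKM at 21 WAF against 1468 FPKM at 17 WAF while LOC111369356 fell to 1707 FPKM at 21 WAF against 3106 FPKM at 17 WAF. Both polyubiquitin genes among the most abundant at 17 WAF fell, with log2 changes of -0.57 for LOC111402507 and -0.38 for LOC111379122.

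Genes were ranked by log2 change among called genes that carry a description other than uncharacterized and have a mean of at least 10 FPKM at either age. The ranking was kept to genes whose libraries did not overlap between the ages. The 12 largest rises in this ranking included, besides bark storage protein and photosystem genes, those given next. LOC111384902, annotated as SULFUR DEFICIENCY-INDUCED 1 after an Arabidopsis gene that responds to sulfur shortage, had 58.01, 59.5 and 59.6 FPKM at 21 WAF, against 5.45, 5.54 and 6.12 FPKM at 17 WAF (log2 change 3.16, SE 0.056, adjusted p = 3.7e-13). The nitrate transporter 2.7 gene LOC111381300, whose Arabidopsis counterpart loads nitrate into seed vacuoles, had 14.7, 14.4 and 14.8 FPKM at 21 WAF, against 0.83, 1.03 and 0.73 FPKM at 17 WAF (log2 change 3.07, SE 0.057, adjusted p = 5.2e-13). It was near the filter in every library at 17 WAF and well above it in every library at 21 WAF. Beta-D-xylosidase 1 LOC111371327, an enzyme that releases xylose from xylans, had 404, 396 and 384 FPKM at 21 WAF, against 45.6, 49.1 and 45.9 FPKM at 17 WAF (log2 change 3.05, SE 0.033, adjusted p = 7.6e-15). It was still higher later, with means of 46.9 FPKM (17 WAF), 395 FPKM (21 WAF), 924 FPKM (26 WAF) and 818 FPKM (30 WAF). Cysteine proteinase inhibitor A LOC111412304, a cystatin that blocks papain-type proteases, had 95.03 ± 1.93 FPKM at 21 WAF, against 10.9 ± 1.49 FPKM at 17 WAF (SD, n = 3 each; log2 change 3.01, adjusted p = 3.8e-12). Kunitz trypsin inhibitor 2 LOC111383654, which blocks serine proteases, had 41.1 ± 1.35 FPKM at 21 WAF, against 4.8 ± 0.252 FPKM at 17 WAF (SD, n = 3 each; log2 change 2.86, adjusted p = 8e-13).

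Smaller members of the group of 12 largest rises included wound-induced protein 1 LOC111404976, first described in wounded potato tubers, with 11.1 FPKM at 21 WAF against 0.8 FPKM at 17 WAF (log2 change 2.75, adjusted p = 3.6e-10). A carboxymethylenebutenolidase homolog LOC111394401, of the dienelactone hydrolase family, had 11.1 FPKM at 21 WAF against 0.873 FPKM at 17 WAF (log2 change 2.69). Dormancy-associated protein homolog 3 LOC111389844, of a family expressed in dormant pea buds, had 105 FPKM at 21 WAF against 16.1 FPKM at 17 WAF (log2 change 2.64). That their libraries did not overlap between ages was a condition of the ranking. Over all tested genes, whatever their level, the largest rise was in LOC111366430, an uncharacterized gene with 25.8, 25.7 and 24.3 FPKM at 21 WAF, against 0.22, 0.29 and 0.6 FPKM at 17 WAF (log2 change 4.27, SE 0.093, adjusted p = 1.9e-12). A further 4 genes were listed at 0 in each library at 17 WAF and averaged at least 5 FPKM at 21 WAF, with no gene the other way round. Of these, a PAM68-type gene, LOC111396637, had 13.8, 13.6 and 14.5 FPKM in the libraries at 21 WAF and was called higher. The gene of WLIM1, an actin-binding LIM domain protein, LOC111386695, had 19.4, 0.15 and 0 FPKM at 21 WAF, so its mean rested on 1 library, and it was not called (adjusted p = 0.22). PAM68 is a photosystem II assembly factor in Arabidopsis. A listed 0 in FPKM can be a failed estimate, and no fold is given for these 4 genes. LOC111366430, LOC111396637 and LOC111386695 were named after their values were seen.

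In the same ranking the largest fall was in a gene of wall sugar supply. Inositol oxygenase 1 LOC111367291, which makes the glucuronic acid used for wall polysaccharides, had 11.7, 11.04 and 12.5 FPKM at 21 WAF, against 128, 129.5 and 117 FPKM at 17 WAF (log2 change -3.30, SE 0.050, adjusted p = 1e-13). The EG45 domain protein LOC111382508, related to expansins, had 4.89, 5.05 and 4.18 FPKM at 21 WAF, against 50.98, 52.3 and 57.3 FPKM at 17 WAF (log2 change -3.26, SE 0.081, adjusted p = 5.4e-12). For these falls, too, libraries that did not overlap between the ages were a condition of the ranking. The proline-rich cell wall protein 2 gene LOC111374924, a structural wall protein, had 2.66 FPKM at 21 WAF against 30.7 FPKM at 17 WAF (log2 change -3.11, adjusted p = 3.3e-11). Gibberellin-regulated protein 4 LOC111376141, of the cysteine-rich GASA family, had 2.94 FPKM at 21 WAF against 32.5 FPKM at 17 WAF (log2 change -3.09, adjusted p = 2.6e-13). These falls did not all last, since inositol oxygenase 1 had means of 125 FPKM (17 WAF), 11.7 FPKM (21 WAF), 74.8 FPKM (26 WAF) and 382 FPKM (30 WAF), and gibberellin-regulated protein 4 had means of 32.5 FPKM (17 WAF), 2.94 FPKM (21 WAF), 11.3 FPKM (26 WAF) and 125 FPKM (30 WAF). A pair of universal stress protein A genes with adjacent identifiers fell, LOC111411759 to 13.9 FPKM at 21 WAF against 95.97 FPKM at 17 WAF and LOC111411760 to 17.8 FPKM at 21 WAF against 118 FPKM at 17 WAF. GDSL esterase/lipase LOC111407226, of a family that includes cutin-building and lipid-cleaving enzymes, fell to 34.4 FPKM at 21 WAF against 199.9 FPKM at 17 WAF (log2 change -2.51). Metallothionein type 3 LOC111385831 fell to 2.15 FPKM at 21 WAF against 21.2 FPKM at 17 WAF, and glucan endo-1,3-beta-glucosidase 14 LOC111400625, a callose-cleaving enzyme, to 4.62 FPKM at 21 WAF against 30.1 FPKM at 17 WAF. The largest fall over all tested genes was in the uncharacterized LOC111397690, with 4.01, 3.78 and 3.49 FPKM at 21 WAF, against 62.1, 60.9 and 62.6 FPKM at 17 WAF (log2 change -3.72, SE 0.067, adjusted p = 3.9e-13). It was named after its values were seen.

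**Figure D3:**
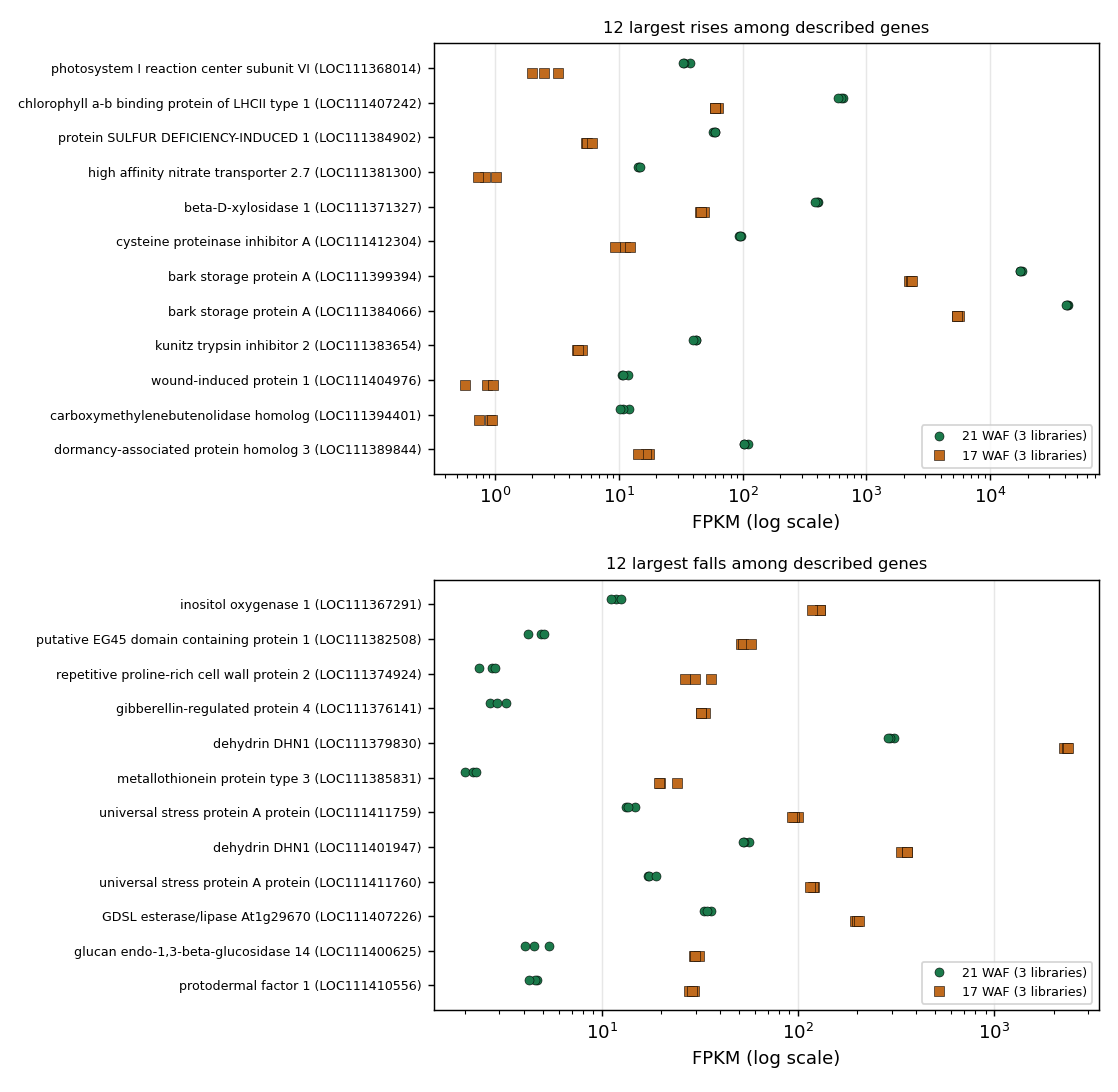
FPKM on a log axis in the 3 libraries at 21 WAF (green circles) and the 3 at 17 WAF (orange squares) for the 12 largest rises and the 12 largest falls among called genes with a mean of at least 10 FPKM at either age and a description other than uncharacterized. That the libraries of both ages are apart in all 24 genes was a condition of the ranking.

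Of 55 gene lists matched to the deposited gene descriptions, 50 had at least 10 tested members. Among these 50, the light reactions had the highest median log2 change, and the mevalonate list and plastid fatty acid synthesis had the lowest. Counts of a list are given with its median log2 change, beside 22.2% higher, 35.9% lower and a median of -0.0685 over all genes tested. The medians of 18 of the 55 lists, all within 0.1 of 0 as deposited, took the other sign under one of the other 2 scalings, so no direction is given for them as lists. Because these are whole pieces of flesh, fewer cells of a type and less RNA per cell cannot be told apart.

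**Figure D4:**
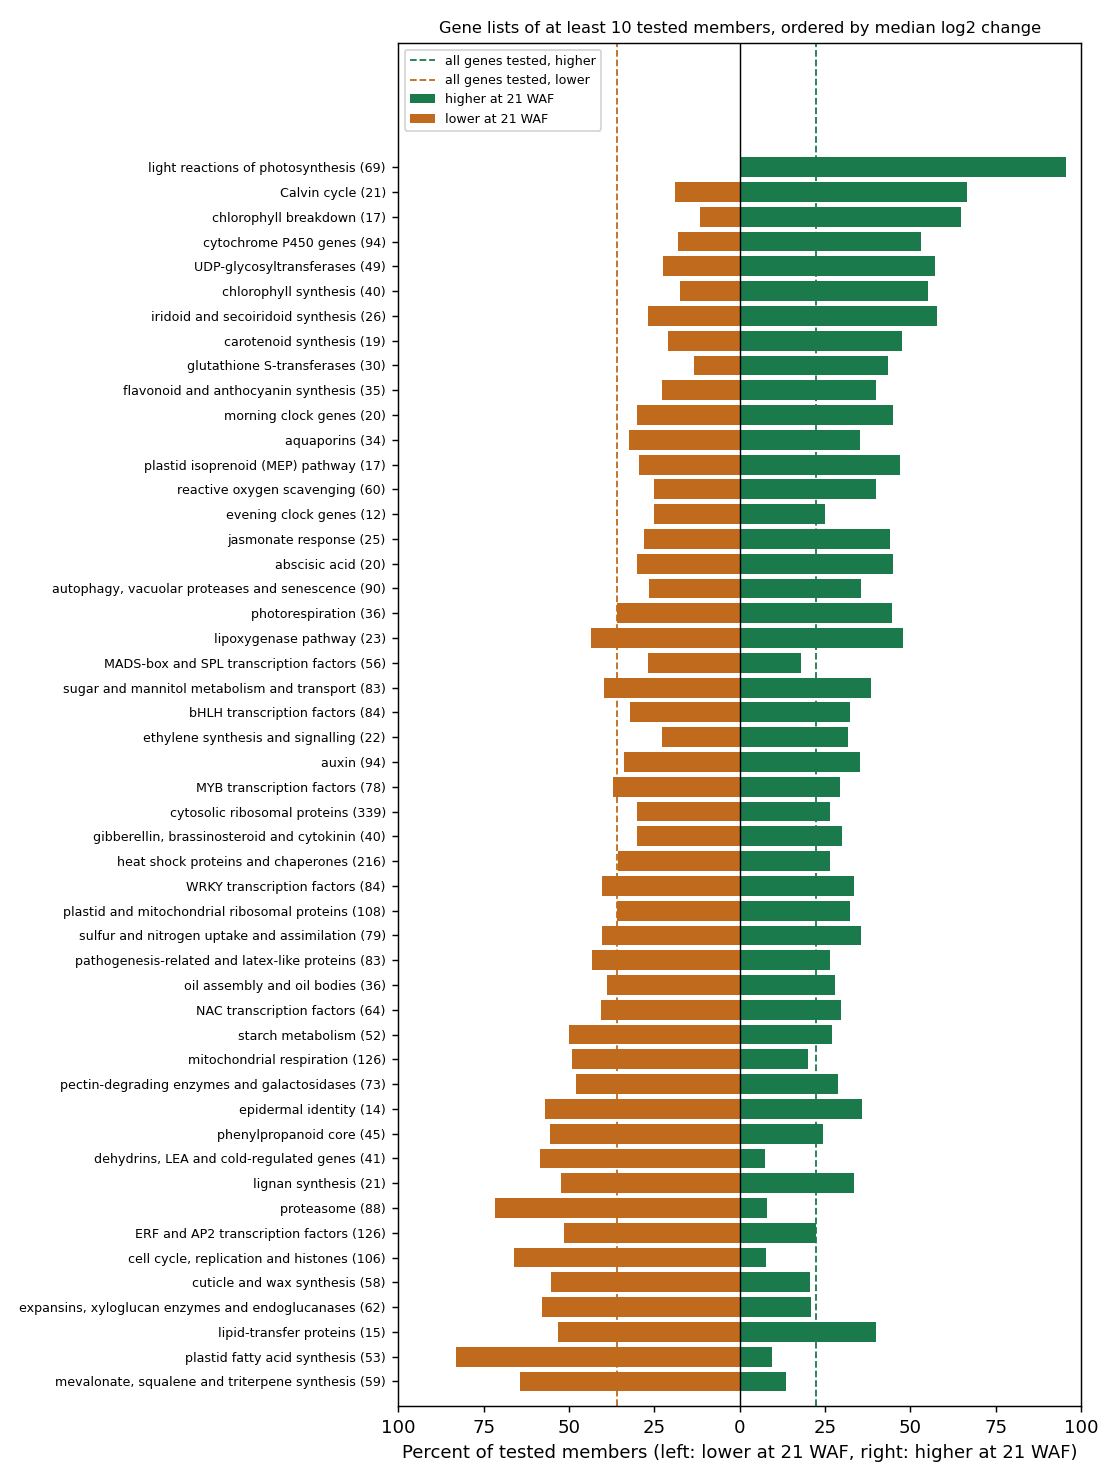
Percent of tested members called higher at 21 WAF (green, to the right) and lower (orange, to the left) in each list with at least 10 tested members, whose number is in brackets. Lists run down the page by median log2 change, and the dashed lines mark the 22.2% and 35.9% of all tested genes. Light reactions of photosynthesis stand at the top with 95.7% higher, and fatty acid synthesis and the mevalonate list stand at the bottom with 83.0% and 64.4% lower.

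Nearly all measured genes of the light reactions were higher at 21 WAF, in each group of thylakoid proteins counted here. Among the light-harvesting proteins, which bind chlorophyll and pass energy to the photosystems, 21 of 21 tested genes were higher and 0 lower (median log2 change 1.67). The summed level of the 22 listed genes was 4495 ± 189.8 FPKM at 21 WAF, against 1197 ± 16.96 FPKM at 17 WAF. For photosystem I, 16 of 16 tested genes were higher and 0 lower (median 1.46). For photosystem II and the oxygen-evolving proteins, 22 of 25 tested genes were higher and 0 lower (median 0.95). Between the photosystems, among cytochrome b6-f, plastocyanin and ferredoxin reductase genes, 7 of 7 tested genes were higher and 0 lower (median 0.90). Copies of a subunit moved by different amounts. The iron-sulfur subunit of cytochrome b6-f had 1 copy, LOC111394769, at 29.6, 28.6 and 27.97 FPKM at 21 WAF, against 4.64, 3.42 and 4.17 FPKM at 17 WAF (log2 change 2.56, SE 0.069, adjusted p = 1e-11). The more abundant copy, LOC111389733, had 155 FPKM at 21 WAF against 82.8 FPKM at 17 WAF (log2 change 0.90). Likewise photosystem I subunit N LOC111401120 rose by 2.18 on the log2 scale, with 245 FPKM at 21 WAF against 53.3 FPKM at 17 WAF, while the abundant subunit II gene LOC111388391 rose by 0.73, with 416 FPKM at 21 WAF against 251 FPKM at 17 WAF. Near-identical light-harvesting copies may share reads, so a single copy's value is less certain than the sum. The copies LOC111389733, LOC111401120 and LOC111388391 were named after their values were seen.

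Chlorophyll synthesis had more higher genes in its late steps than in its early ones. Of the tested genes from glutamate to protoporphyrin, 9 of 23 tested genes were higher and 5 lower (median 0.074). In the magnesium branch, which is committed to chlorophyll, 13 of 17 tested genes were higher and 2 lower (median 0.50). The difference between the 2 stretches was not tested. Protochlorophyllide reductase LOC111395683, the light-driven step that yields chlorophyllide, had 90.2, 86.8 and 87.7 FPKM at 21 WAF, against 20.1, 20.4 and 19.4 FPKM at 17 WAF (log2 change 2.09, SE 0.034, adjusted p = 1.8e-13). A copy of the cyclase that closes the fifth ring, LOC111399586, had 124, 122 and 117 FPKM at 21 WAF, against 34.6, 38.2 and 35.5 FPKM at 17 WAF (log2 change 1.72, SE 0.052, adjusted p = 2.6e-11). Its other abundant copy LOC111369306 rose less, by 0.44. Magnesium chelatase subunit ChlH LOC111375026, which binds the porphyrin, rose by 1.30 to 15.7 FPKM at 21 WAF against 5.77 FPKM at 17 WAF. Subunit ChlD LOC111400850 fell by 0.25 and, on the same log2 scale, chlorophyllide a oxygenase LOC111380803, the enzyme of chlorophyll b, fell by 0.32. Glutamyl-tRNA reductase 1 LOC111410189, the entry of the pathway, fell by 0.20.

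Genes of chlorophyll breakdown were also mostly higher. Of 17 tested (18 listed), 11 were higher at 21 WAF, 2 were lower and 4 did not pass the test (median 0.33). STAY-GREEN LOC111368827, which removes magnesium from chlorophyll a, had 92.3, 92.7 and 96.4 FPKM at 21 WAF, against 41.2, 40.4 and 40.9 FPKM at 17 WAF (log2 change 1.18, SE 0.034, adjusted p = 1.9e-11). NYC1 LOC111399962, which starts chlorophyll b breakdown, rose by 0.56 to 67.9 FPKM at 21 WAF against 45.6 FPKM at 17 WAF, and 7-hydroxymethyl chlorophyll a reductase LOC111371588, the next step, by 0.98. Against them, chlorophyllase-2 LOC111377213, an esterase that cuts the phytol tail, fell to 24.2 FPKM at 21 WAF against 83.6 FPKM at 17 WAF (log2 change -1.75, SE 0.044, adjusted p = 5.5e-12). In the carotenoid list, 9 were higher at 21 WAF, 4 were lower and 6 did not pass the test (median 0.13). Lycopene epsilon cyclase LOC111366340, which opens the lutein branch, rose to 9.89 FPKM at 21 WAF against 3.40 FPKM at 17 WAF (log2 change 1.31). Zeaxanthin epoxidase copies that rose were LOC111412311 by 0.84, LOC111383342 by 1.06 and LOC111390917 by 0.84. The naming rule takes in the largest rises of a list, so these copies do not stand for all copies. The zeta-carotene desaturase LOC111379201, an earlier step, fell by 0.50 on the log2 scale.

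In photorespiration, which salvages the product of Rubisco's reaction with oxygen, the list as a whole did not lean one way. Of 36 tested (38 listed), 16 were higher at 21 WAF, 13 were lower and 7 did not pass the test, with a median of 0.025 that changed sign with the scaling. Its parts differed. For the peroxisomal glycolate oxidases, 5 of 5 tested genes were higher and 0 lower, among them LOC111395787 with 176 FPKM at 21 WAF against 86.2 FPKM at 17 WAF and LOC111370872 with 156 FPKM at 21 WAF against 69.9 FPKM at 17 WAF. For serine hydroxymethyltransferase, 3 of 10 tested genes were higher and 5 lower: mitochondrial LOC111409073 rose to 56.8 FPKM at 21 WAF against 17.8 FPKM at 17 WAF (log2 change 1.62), and LOC111390838, annotated as isoform 4, fell to 7 FPKM at 21 WAF against 22.6 FPKM at 17 WAF (log2 change -1.57). Assembly of Rubisco also had a riser, the chaperonin RbcX protein 2 gene LOC111394854, with 25.8 FPKM at 21 WAF against 5.93 FPKM at 17 WAF (log2 change 1.96, SE 0.095, adjusted p = 2.1e-09).

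Most tested genes of fatty acid synthesis in the plastid were lower, by modest amounts. Of 53 tested genes (65 listed), 5 were higher at 21 WAF, 44 were lower and 4 did not pass the test (median -0.45). For plastid pyruvate dehydrogenase, which supplies acetyl-CoA, 0 of 4 tested genes were higher and 4 lower (median -0.25). For acetyl-CoA carboxylase, which makes malonyl-CoA and commits carbon to the pathway, 1 of 15 tested genes were higher and 12 lower (median -0.37). Its most abundant biotin carrier gene, LOC111374845, had 608 FPKM at 21 WAF against 842 FPKM at 17 WAF (log2 change -0.47, adjusted p = 1e-06). For the enzymes of chain elongation, 1 of 21 tested genes were higher and 18 lower (median -0.54). Enoyl-ACP reductase LOC111392747, which ends each elongation cycle, had 59.8, 58.02 and 56.8 FPKM at 21 WAF, against 118, 124 and 119 FPKM at 17 WAF (log2 change -1.04, SE 0.029, adjusted p = 1.6e-11). The ketoacyl-ACP reductase LOC111401907 had 22.6, 20.7 and 20.2 FPKM at 21 WAF, against 53.5, 54.3 and 56.4 FPKM at 17 WAF (log2 change -1.33, SE 0.048, adjusted p = 1.1e-10). In both genes the libraries of the 2 ages lay far apart. For the thioesterases, which release the finished chains, 0 of 5 tested genes were higher and 5 lower (median -0.47).

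Stearoyl-ACP desaturase, which turns stearate into oleate, split by copy. The most abundant copy, LOC111375456, had 1189.5, 1189.8 and 1177 FPKM at 21 WAF, against 1895, 1935 and 1902 FPKM at 17 WAF (log2 change -0.69, SE 0.024, adjusted p = 9.9e-11). The summed level of the 6 listed copies was 1606 ± 12.5 FPKM at 21 WAF, against 2473 ± 19.3 FPKM at 17 WAF, and 2 of 4 tested genes were higher and 2 lower. The higher ones were scarce copies, LOC111388674 with 19.1 FPKM at 21 WAF against 10.1 FPKM at 17 WAF and LOC111393581 with 25.4 FPKM at 21 WAF against 18.96 FPKM at 17 WAF. For acyl carrier proteins, 1 of 4 tested genes was higher and 3 lower (median -0.15). The higher one had a log2 change of 1.25, the largest rise in the fatty acid synthesis list. The most abundant acyl carrier protein gene, LOC111375813, differed little, with 1809 FPKM at 21 WAF against 1952 FPKM at 17 WAF (log2 change -0.11, adjusted p = 0.022). It was not called under median-of-ratios scaling. The biotin carrier gene LOC111374845 was named after its values were seen.

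Oil assembly was more even between the directions: of 36 tested, 10 were higher at 21 WAF, 14 were lower and 12 did not pass the test, with a median of -0.055. The delta-12 desaturase FAD2 copy LOC111399693, which makes linoleate in the endoplasmic reticulum, rose to 190.0 FPKM at 21 WAF against 147 FPKM at 17 WAF (log2 change 0.37), and copy LOC111365935 fell to 22.2 FPKM at 21 WAF against 40.3 FPKM at 17 WAF (log2 change -0.83). The plastid omega-6 desaturase LOC111376237 rose to 44.4 FPKM at 21 WAF against 24.1 FPKM at 17 WAF. Oleosin LOC111402449, a coat protein of oil bodies, rose to 170.2 FPKM at 21 WAF against 104 FPKM at 17 WAF (log2 change 0.70, SE 0.059, adjusted p = 3.9e-07). The glycerol-3-phosphate acyltransferase 8 gene LOC111411720, of a family that feeds cutin and suberin synthesis in Arabidopsis, fell to 57.2 FPKM at 21 WAF against 126 FPKM at 17 WAF (log2 change -1.12, SE 0.058, adjusted p = 4.1e-09). In the lipoxygenase pathway, whose products from linoleic and linolenic acid include the green volatiles of olive oil, 11 were higher at 21 WAF, 10 were lower and 2 did not pass the test. The 13-lipoxygenase LOC111392344 had 1569, 1538 and 1500.4 FPKM at 21 WAF, against 551, 557 and 567 FPKM at 17 WAF (log2 change 1.46, SE 0.027, adjusted p = 4.8e-13). Its copy LOC111393284 rose to 261 FPKM at 21 WAF against 91.6 FPKM at 17 WAF. Hydroperoxide lyase LOC111368519, which cuts the lipoxygenase product into volatile aldehydes, had 525 FPKM at 21 WAF against 518 FPKM at 17 WAF, with no call (adjusted p = 0.64). The 9-lipoxygenase copies diverged, LOC111388392 with 17.2 FPKM at 21 WAF against 8.52 FPKM at 17 WAF and LOC111386480 with 36.4 FPKM at 21 WAF against 90.9 FPKM at 17 WAF.

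The mevalonate pathway and its triterpene products were the list with the lowest median. Of 59 tested members (85 listed), 8 were higher at 21 WAF, 38 were lower and 13 did not pass the test (median -0.52). On the way to farnesyl diphosphate, 2 of 25 tested genes were higher and 17 lower (median -0.52). HMG-CoA synthase LOC111407520, the second enzyme, had 78.2, 77.4 and 80.5 FPKM at 21 WAF, against 187, 184 and 178 FPKM at 17 WAF (log2 change -1.21, SE 0.038, adjusted p = 3.4e-11). The acetyl-CoA acetyltransferase LOC111390947, the first, fell to 322 FPKM at 21 WAF against 517 FPKM at 17 WAF (log2 change -0.68). HMG-CoA reductase, the regulated step, differed by copy: LOC111410512 rose to 49.8 FPKM at 21 WAF against 39.04 FPKM at 17 WAF (log2 change 0.34), and LOC111409359 fell to 27.5 FPKM at 21 WAF against 39.9 FPKM at 17 WAF (log2 change -0.52). For squalene synthesis and epoxidation, 1 of 9 tested genes were higher and 7 lower (median -0.77). The riser was a squalene synthase, LOC111380678, at 67.8 FPKM at 21 WAF against 56.8 FPKM at 17 WAF (log2 change 0.25, adjusted p = 0.00018). Another squalene synthase LOC111374919 fell to 36.6 FPKM at 21 WAF against 53.7 FPKM at 17 WAF (log2 change -0.54). Copies that are alike may share reads. LOC111409359, LOC111380678 and LOC111374919 were named after their values were seen.

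Of the branches beyond squalene, the triterpene branch was lower and the sterol branch mixed. For amyrin and triterpene acid enzymes, 0 of 7 tested genes were higher and 6 lower (median -0.73). Beta-amyrin 28-oxidase LOC111407310, the P450 that makes oleanolic acid from beta-amyrin, had 171, 161 and 159 FPKM at 21 WAF, against 372, 378 and 383 FPKM at 17 WAF (log2 change -1.20, SE 0.034, adjusted p = 1.7e-11). For cycloartenol and sterol enzymes, 4 of 16 tested genes were higher and 7 lower (median -0.15). Cycloartenol synthase LOC111372683, the entry to plant sterols, rose to 26.3 FPKM at 21 WAF against 18.5 FPKM at 17 WAF (log2 change 0.48). The plastid MEP pathway, the other source of isoprenoid units, had 8 higher at 21 WAF, 5 lower and 4 that did not pass the test (median 0.078). Its entry enzyme, deoxyxylulose phosphate synthase LOC111375809, rose to 24.9 FPKM at 21 WAF against 14.1 FPKM at 17 WAF (log2 change 0.78), and its last reductase, LOC111381423, to 35.8 FPKM at 21 WAF against 20.6 FPKM at 17 WAF (log2 change 0.77).

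**Figure D5:**
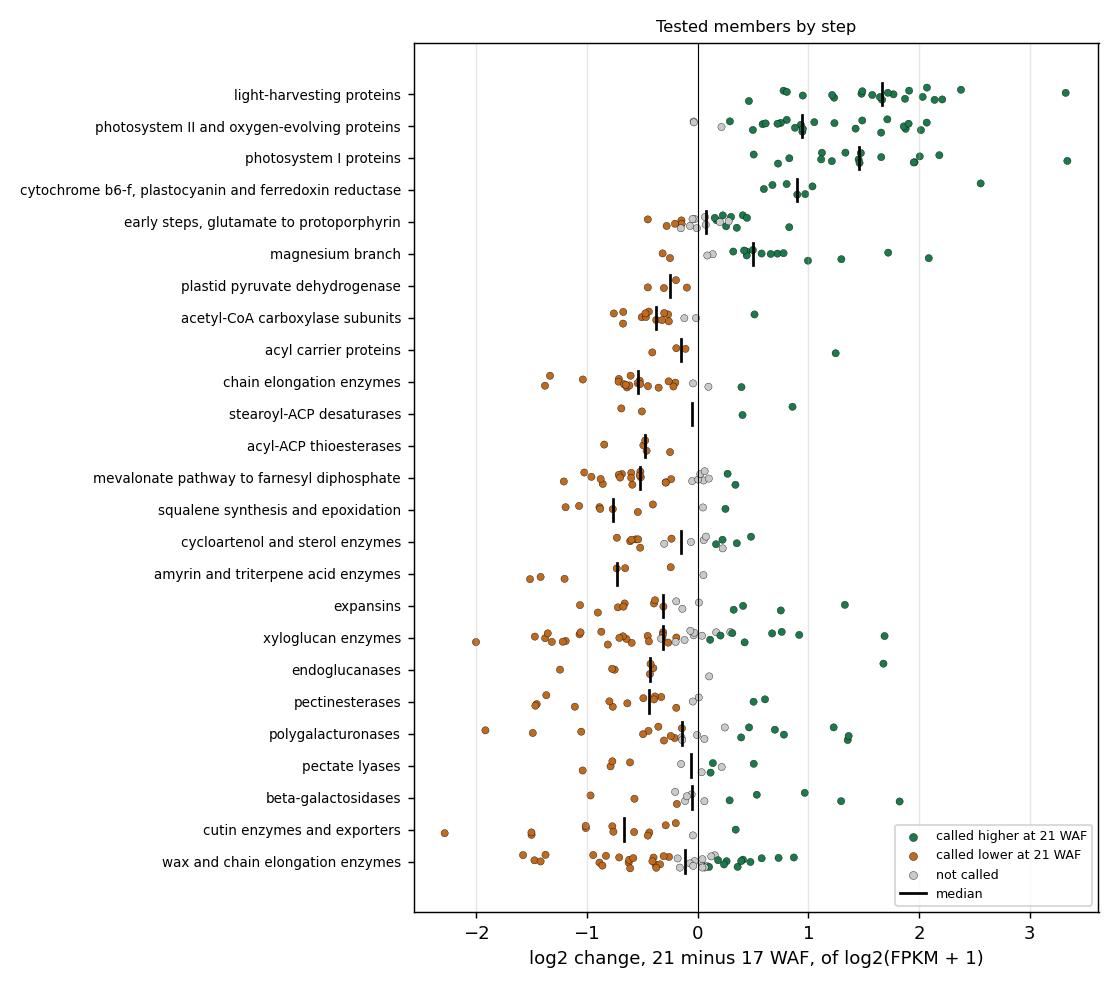
Each point is a tested gene at its log2 change, 21 minus 17 WAF, in green or orange where called higher or lower and in grey where not called. Black bars are the medians of a step. Steps of the light reactions lie to the right of 0, fatty acid synthesis and the mevalonate to squalene steps lie mostly to the left, and the wall and cuticle steps spread to both sides. The steps were cut from the lists after values had been seen.

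Genes of iridoid and secoiridoid synthesis, the route to oleuropein, leaned upward. Of 26 tested (38 listed), 15 were higher at 21 WAF, 7 were lower and 4 did not pass the test (median 0.17). The 7-deoxyloganetic acid glucosyltransferase LOC111376443, which adds the glucose of the iridoid core, had 153, 153 and 152 FPKM at 21 WAF, against 104, 112 and 109 FPKM at 17 WAF (log2 change 0.49, SE 0.028, adjusted p = 9e-09). The 8-hydroxygeraniol dehydrogenase genes, whose enzyme oxidizes the precursor, split, with LOC111387381 at 82.7 FPKM at 21 WAF against 49.2 FPKM at 17 WAF and LOC111373465 at 47.5 FPKM at 21 WAF against 71.8 FPKM at 17 WAF. A 5-beta-reductase-type gene LOC111394633, of the family that includes iridoid synthase, rose to 142 FPKM at 21 WAF against 102 FPKM at 17 WAF.

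The phenylpropanoid core, which makes cinnamic acids for phenols and lignin, leaned down in counts but not in its sum. At 21 WAF 11 genes were higher, 25 were lower and 9 did not pass the test (median -0.19). The core summed to 1362 ± 28.3 FPKM at 21 WAF, against 1355 ± 23.2 FPKM at 17 WAF. Its entry enzyme, phenylalanine ammonia-lyase, had 2 low copies that fell, LOC111399604 to 1.54 FPKM at 21 WAF against 8.07 FPKM at 17 WAF and LOC111403111 to 5.22 FPKM at 21 WAF against 12.9 FPKM at 17 WAF. The first of these had means of 8.07 FPKM (17 WAF), 1.54 FPKM (21 WAF), 3.21 FPKM (26 WAF) and 37.3 FPKM (30 WAF). Cinnamoyl-CoA reductase genes, of the lignin branch, differed in direction, LOC111392506 rising to 52.02 FPKM at 21 WAF against 17.5 FPKM at 17 WAF and LOC111410576 falling to 211 FPKM at 21 WAF against 312 FPKM at 17 WAF. Of the flavonoid and anthocyanin genes, 14 were higher at 21 WAF, 8 were lower and 13 did not pass the test (median 0.10). Flavonoid 3'-monooxygenase LOC111401587, which adds a hydroxyl to the flavonoid B ring, fell slightly to 4.31 FPKM at 21 WAF against 6.18 FPKM at 17 WAF (log2 change -0.44). Dihydroflavonol 4-reductase LOC111381085, the first step toward anthocyanins, rose to 10.7 FPKM at 21 WAF against 5.75 FPKM at 17 WAF. In the lignan list the abundant secoisolariciresinol dehydrogenase copies fell, LOC111412277 to 378 FPKM at 21 WAF against 586 FPKM at 17 WAF and LOC111412275 to 357 FPKM at 21 WAF against 496 FPKM at 17 WAF. Dirigent protein 22 LOC111401164, of a family that sets the stereochemistry of lignan coupling, fell to 5.02 FPKM at 21 WAF against 26.9 FPKM at 17 WAF (log2 change -2.21). The list's counts were 7 higher at 21 WAF, 11 lower and 3 that did not pass the test (median -0.20).

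The large families of tailoring enzymes were among the lists with most higher genes. Of 94 tested cytochrome P450 genes, 50 were higher at 21 WAF, 17 were lower and 27 did not pass the test (median 0.25). CYP71A8-type LOC111399662 rose to 619.7 FPKM at 21 WAF against 402 FPKM at 17 WAF, and CYP76A1-type LOC111386126, of a family with iridoid and geraniol oxidases in other plants, to 80.98 FPKM at 21 WAF against 31.6 FPKM at 17 WAF (log2 change 1.33, SE 0.030, adjusted p = 2.4e-12). Of 49 tested UDP-glycosyltransferases, which attach sugars to small molecules, 28 were higher at 21 WAF, 11 were lower and 10 did not pass the test (median 0.25). UGT73C1-type LOC111386133 rose to 107 FPKM at 21 WAF against 47.1 FPKM at 17 WAF and UGT73C5-type LOC111381063 fell to 10.8 FPKM at 21 WAF against 24.1 FPKM at 17 WAF. Of 30 glutathione S-transferases, 13 were higher at 21 WAF, 4 were lower and 13 did not pass the test. The polyphenol oxidase I gene LOC111375437, which oxidizes phenols when tissue is crushed, differed little, with 81.3 FPKM at 21 WAF against 72.04 FPKM at 17 WAF (log2 change 0.17, adjusted p = 0.0013).

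Wall-loosening genes were more often lower than higher, with exceptions in each group. Of 62 tested expansins, xyloglucan enzymes and endoglucanases, 13 were higher at 21 WAF, 36 were lower and 13 did not pass the test (median -0.32). Expansin-A15 LOC111381719, of a family that loosens walls during growth and softening, had 443, 461 and 439 FPKM at 21 WAF, against 177, 180.2 and 175 FPKM at 17 WAF (log2 change 1.33, SE 0.026, adjusted p = 7.8e-13). The other abundant expansin, A1 LOC111398900, fell to 156 FPKM at 21 WAF against 293 FPKM at 17 WAF (log2 change -0.90, SE 0.037, adjusted p = 4.7e-10). The 44 listed expansins summed to 783.6 ± 14.8 FPKM at 21 WAF, against 714 ± 22.8 FPKM at 17 WAF. Over all ages expansin-A15 had means of 177 FPKM (17 WAF), 448 FPKM (21 WAF), 1617 FPKM (26 WAF) and 3142 FPKM (30 WAF), which makes 17 WAF its lowest age. Among xyloglucan enzymes 8 of 39 tested genes were higher and 22 lower, with log2 changes from -2.00 to 1.69. Xyloglucan endotransglucosylase/hydrolases cut and rejoin xyloglucan, and of these a pair of type 23 genes fell, LOC111387295 to 10.2 FPKM at 21 WAF against 43.7 FPKM at 17 WAF and LOC111391451 to 8.97 FPKM at 21 WAF against 24.9 FPKM at 17 WAF. The endoglucanase LOC111392407 rose to 19.9 FPKM at 21 WAF against 5.52 FPKM at 17 WAF (log2 change 1.68) while 6 of the 8 tested endoglucanases fell.

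Among pectin enzymes, the de-esterifying ones fell and a galactosidase rose. For pectinesterases, which remove methyl groups from pectin, 2 of 16 tested genes were higher and 12 lower (median -0.44). The abundant pectinesterase 1 gene LOC111367315 fell to 204 FPKM at 21 WAF against 317 FPKM at 17 WAF (log2 change -0.63), and isoform 61 LOC111384532 to 13.2 FPKM at 21 WAF against 37.8 FPKM at 17 WAF (log2 change -1.45). Beta-galactosidase LOC111387481, which trims galactose from pectin side chains, had 319, 327 and 317 FPKM at 21 WAF, against 86.6, 92.4 and 90.9 FPKM at 17 WAF (log2 change 1.82, SE 0.027, adjusted p = 1e-13). At 21 WAF it carried most of the family's sum, which was 556 ± 6.35 FPKM at 21 WAF, against 273 ± 4.45 FPKM at 17 WAF, while 5 of 13 tested genes were higher and 3 lower. Polygalacturonases cut the pectin backbone, and 7 of 22 tested genes were higher and 10 lower. A pair of the risers, LOC111377603 and LOC111396324, were still low at 21 WAF, with means of 2.63 FPKM (17 WAF), 8.35 FPKM (21 WAF), 105 FPKM (26 WAF) and 182 FPKM (30 WAF) for the first and means of 1.92 FPKM (17 WAF), 6.49 FPKM (21 WAF), 76.1 FPKM (26 WAF) and 127 FPKM (30 WAF) for the second. Among pectate lyases, which also cut the backbone, 3 of 10 tested genes were higher and 4 lower.

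Cutin genes fell almost as a group. For cutin enzymes and exporters, 1 of 14 tested genes were higher and 12 lower (median -0.67). The fatty acid hydroxylase CYP86A22 LOC111407574, of the family that makes omega-hydroxy cutin monomers, had 6.46, 5.88 and 5.58 FPKM at 21 WAF, against 32.96, 32.6 and 33.1 FPKM at 17 WAF (log2 change -2.28, SE 0.058, adjusted p = 6.2e-12). The cutin P450 CYP77A2 LOC111378346 fell to 4.42 FPKM at 21 WAF against 14.3 FPKM at 17 WAF (log2 change -1.50), and glycerol-3-phosphate acyltransferase 6 LOC111365608, which joins monomers to glycerol, to 3.11 FPKM at 21 WAF against 10.6 FPKM at 17 WAF (log2 change -1.50). All 3 had higher means at 30 WAF than at 21 WAF, and for CYP86A22 the 4 ages had means of 32.9 FPKM (17 WAF), 5.97 FPKM (21 WAF), 6.24 FPKM (26 WAF) and 45.5 FPKM (30 WAF). For wax and chain elongation enzymes, 11 of 44 tested genes were higher and 20 lower (median -0.11). The most abundant, 3-ketoacyl-CoA synthase 10 LOC111388105, which lengthens fatty acids for wax, rose to 296 FPKM at 21 WAF against 178 FPKM at 17 WAF (log2 change 0.73, SE 0.036, adjusted p = 2.5e-09). ECERIFERUM 3 LOC111385303, of alkane formation, had 172 FPKM at 21 WAF against 167 FPKM at 17 WAF, with no call (adjusted p = 0.21).

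Marker lists of neighbouring tissues were read beside these values. The summed level of the 22 listed genes of epidermal identity ran from 252 to 259 FPKM at 21 WAF, against 393 to 403 FPKM at 17 WAF. Of the 14 tested, 5 were higher and 8 lower, with log2 changes from -1.91 to 0.50 (median -0.17). The 5 higher genes are not named, and the list members named below are among the lower ones. Of these 22 genes, 3 were listed at 0 and 8 were under 1 FPKM in each of the 6 libraries. Homeobox genes annotated as ANTHOCYANINLESS 2, which acts in the Arabidopsis epidermis, fell, LOC111410766 to 23.4 FPKM at 21 WAF against 90.2 FPKM at 17 WAF (log2 change -1.91) and LOC111391553 to 56.6 FPKM at 21 WAF against 97.9 FPKM at 17 WAF. Protodermal factor 1 LOC111410556, an epidermal wall protein in Arabidopsis, is not a member of this list. It fell to 4.68, 4.55 and 4.26 FPKM at 21 WAF, against 27.7, 29.2 and 28.7 FPKM at 17 WAF (log2 change -2.43, SE 0.058, adjusted p = 3.8e-12). The 110 cuticle and wax genes summed to 1323 to 1343 FPKM at 21 WAF, against 1512 to 1524 FPKM at 17 WAF, with 11 listed at 0 and 56 under 1 FPKM in all 6 libraries. The part of skin in the sampled pieces in these differences was not tested.

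Most stone and seed markers were under 1 FPKM in all 6 libraries, but a vicilin-type gene and a 2S storage protein were well above it. Of 59 genes of lignin polymerization and the secondary wall, 56 were under 1 FPKM in all 6 libraries, 16 of them listed at 0, and among the 56 were all listed copies of cellulose synthase subunits 4, 7 and 8, COBRA-like 4 and the fasciclin-like proteins 11 and 12. Their sum was 22.1 to 22.4 FPKM at 21 WAF, against 16.6 to 19.7 FPKM at 17 WAF, most of it laccase-4 LOC111404394 and laccase-17 LOC111399734. Of 11 seed storage genes, 2 were listed at 0 and 7 were under 1 FPKM. Their sum was 114.5 to 116.7 FPKM at 21 WAF, against 169.9 to 174.0 FPKM at 17 WAF, most of it a vicilin-type gene, LOC111393661, with 99.7 FPKM at 21 WAF against 133 FPKM at 17 WAF. The 2S sulfur-rich storage protein LOC111397324 had 11.3, 12.8 and 10.8 FPKM at 21 WAF, against 33.6, 33.8 and 30.97 FPKM at 17 WAF (log2 change -1.42). The part of seed tissue in the result was not tested.

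Genes of dehydration and cold were more often lower than higher at 21 WAF, and some of those that fell started among the most abundant of the flesh. The list summed to 9231 to 10202 FPKM at 21 WAF, against 22282 to 23399 FPKM at 17 WAF. Of 41 tested (70 listed), 3 were higher at 21 WAF, 24 were lower and 14 did not pass the test (median -0.20). Dehydrins are hydrophilic proteins made in drought and cold. The abundant dehydrin DHN1 gene LOC111379830 had 309, 293 and 286 FPKM at 21 WAF, against 2254, 2340.2 and 2378 FPKM at 17 WAF (log2 change -2.97, SE 0.043, adjusted p = 1e-13). The copies LOC111401947 and LOC111401949 fell to 53.7 FPKM at 21 WAF against 349.6 FPKM at 17 WAF and to 160.0 FPKM at 21 WAF against 774 FPKM at 17 WAF. In all 3 dehydrins the libraries at 21 WAF were far below those at 17 WAF. The second SRC1 gene LOC111389477 had 516, 521 and 506 FPKM at 21 WAF, against 2793, 2432 and 2453 FPKM at 17 WAF (log2 change -2.31, SE 0.060, adjusted p = 8e-12). Not every member fell, and the late embryogenesis abundant gene LOC111406587 rose to 84.7 FPKM at 21 WAF against 49.8 FPKM at 17 WAF (log2 change 0.75). The first dehydrin had means of 2324 FPKM (17 WAF), 296 FPKM (21 WAF), 501 FPKM (26 WAF) and 1587 FPKM (30 WAF). The copy LOC111401949 was named after its values were seen.

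Aquaporins, the water channels of membranes, went in both directions: of 34 tested, 12 were higher at 21 WAF, 11 were lower and 11 did not pass the test. PIP2-8 LOC111379782, of the plasma membrane, had 316, 292 and 265 FPKM at 21 WAF, against 77.3, 79.2 and 77.6 FPKM at 17 WAF (log2 change 1.88, SE 0.064, adjusted p = 6.7e-11). The abundant vacuolar TIP1-1 LOC111393963 fell to 1767 FPKM at 21 WAF against 2326 FPKM at 17 WAF (log2 change -0.39, adjusted p = 0.0028), and the vacuolar TIP1-2 pair rose, LOC111393814 to 47.7 FPKM at 21 WAF against 18.8 FPKM at 17 WAF and LOC111393813 to 35.7 FPKM at 21 WAF against 15.8 FPKM at 17 WAF. Chaperones were near the background, with 57 higher at 21 WAF, 77 lower and 82 that did not pass the test among 216 tested. The most abundant, heat shock cognate protein 2 LOC111385111, fell to 547 FPKM at 21 WAF against 837 FPKM at 17 WAF (log2 change -0.61). The dnaJ-type co-chaperones included both a marked riser, LOC111397379 with 24.5 FPKM at 21 WAF against 6.48 FPKM at 17 WAF, and a marked faller, LOC111365906 with 77.9 FPKM at 21 WAF against 205 FPKM at 17 WAF.

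Sulfate assimilation rose along most of its length. For sulfate uptake and assimilation, 14 of 20 tested genes were higher and 2 lower (median 0.40). The summed level of the 32 listed genes was 547 ± 7.82 FPKM at 21 WAF, against 381 ± 2.36 FPKM at 17 WAF. Sulfate transporter 1.3 LOC111393836, for uptake, had 16.9, 16.1 and 16.2 FPKM at 21 WAF, against 5.37, 6.22 and 6.36 FPKM at 17 WAF (log2 change 1.32, SE 0.066, adjusted p = 2.9e-09). ATP sulfurylase 1 LOC111369600, which activates sulfate, had 83.3, 82.2 and 76.5 FPKM at 21 WAF, against 23.9, 24.1 and 26.8 FPKM at 17 WAF (log2 change 1.66, SE 0.044, adjusted p = 8.8e-12). All 3 libraries at 21 WAF were at several times the level of those at 17 WAF. The 5'-adenylylsulfate reductase genes, the first reduction, rose too, LOC111395949 to 88.9 FPKM at 21 WAF against 27.5 FPKM at 17 WAF (log2 change 1.66) and LOC111402425 to 63.6 FPKM at 21 WAF against 22.5 FPKM at 17 WAF (log2 change 1.46). Sulfite reductase LOC111392512, the second reduction, rose to 56.5 FPKM at 21 WAF against 38.8 FPKM at 17 WAF (log2 change 0.53). The reductase genes LOC111395949, LOC111402425 and LOC111392512 were named after their values were seen, and the group was cut from a wider list whose counts were 28 higher at 21 WAF, 32 lower and 19 that did not pass the test.

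Among nitrogen genes, transporters were more often lower than higher, as were all genes tested (35.9% lower and 22.2% higher). For NRT1/PTR transporters, a family that carries nitrate, peptides and other small molecules, 11 of 41 tested genes were higher and 21 lower (median -0.17). Their log2 changes ran from -2.23 to 1.10. Members annotated as NRT1/PTR 2.11, a glucosinolate transporter in Arabidopsis, fell, LOC111388722 to 281 FPKM at 21 WAF against 540.1 FPKM at 17 WAF and LOC111386157 to 6.99 FPKM at 21 WAF against 36.3 FPKM at 17 WAF (log2 change -2.23). Cytosolic glutamine synthetase, which fixes ammonium, had 908 FPKM at 21 WAF against 938 FPKM at 17 WAF for copy LOC111408686 with no call (adjusted p = 0.33), and copy LOC111397164 fell to 237 FPKM at 21 WAF against 377 FPKM at 17 WAF.

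Sugar genes were balanced as a list, with 32 higher at 21 WAF, 33 lower and 18 that did not pass the test. The soluble acid invertase LOC111383352, which splits sucrose in the vacuole, had 28.4, 30.4 and 29.7 FPKM at 21 WAF, against 6.43, 5.95 and 7.17 FPKM at 17 WAF (log2 change 2.02, SE 0.050, adjusted p = 4.7e-12). Over the 4 ages it had means of 6.52 FPKM (17 WAF), 29.5 FPKM (21 WAF), 222 FPKM (26 WAF) and 216 FPKM (30 WAF). Galactinol synthase 2 LOC111409851, the first step to raffinose, had 55.1, 57.4 and 55.8 FPKM at 21 WAF, against 216, 212 and 212 FPKM at 17 WAF (log2 change -1.91, SE 0.037, adjusted p = 8e-13). Among raffinose family enzymes, 5 of 15 tested genes were higher and 9 lower (median -0.36). Polyol transporter LOC111399534, of a family that carries mannitol, rose to 659 FPKM at 21 WAF against 428 FPKM at 17 WAF (log2 change 0.62), and a sucrose transporter LOC111394384 fell to 2.05 FPKM at 21 WAF against 9.18 FPKM at 17 WAF (log2 change -1.74). Starch genes leaned down as deposited, with 14 higher at 21 WAF, 26 lower and 12 that did not pass the test (median -0.12). With median-of-ratios scaling the lean was smaller, with 15 higher and 20 lower (median -0.049). Beta-amylase 1 LOC111379737, which frees maltose from starch, fell to 659.8 FPKM at 21 WAF against 1076 FPKM at 17 WAF (log2 change -0.71, SE 0.027, adjusted p = 2.4e-10). An ADP-glucose pyrophosphorylase large subunit gene, LOC111393440, of starch synthesis, rose to 8.997 FPKM at 21 WAF against 1.81 FPKM at 17 WAF (log2 change 1.83).

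Of 126 tested respiration genes, 19.8% were higher at 21 WAF and 49.2% lower, beside 22.2% and 35.9% of all genes tested. The changes were small. With median-of-ratios scaling the counts were 29 higher and 45 lower (median -0.058). For citrate cycle enzymes, 10 of 40 tested genes were higher and 22 lower (median -0.16), and for the respiratory chain and ATP synthase, 15 of 86 tested genes were higher and 40 lower (median -0.11). The NADP isocitrate dehydrogenase LOC111379667, which makes NADPH from isocitrate, fell to 92.3 FPKM at 21 WAF against 157 FPKM at 17 WAF (log2 change -0.76). Mitochondrial malate dehydrogenase LOC111391600 fell to 54.96 FPKM at 21 WAF against 88.9 FPKM at 17 WAF, and the Rieske protein LOC111406209 of the cytochrome b-c1 complex rose to 103 FPKM at 21 WAF against 71.4 FPKM at 17 WAF.

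Most proteasome and cell division genes were lower, each by little. In the 20S core, which cuts ubiquitin-tagged proteins, 4 of 32 tested genes were higher and 23 lower (median -0.24). In the 26S regulatory particle, 3 of 51 tested genes were higher and 38 lower (median -0.21). The largest fall of a subunit, in non-ATPase subunit 2 LOC111395462, was to 70.3 FPKM at 21 WAF against 121 FPKM at 17 WAF (log2 change -0.78, adjusted p = 7.5e-11). Among histones, 4 of 53 tested genes were higher and 39 lower (median -0.26), and among cyclins, replication and division proteins, 4 of 53 tested genes were higher and 31 lower (median -0.21). Histone H1 LOC111391418, a linker histone, fell to 20.7 FPKM at 21 WAF against 43.4 FPKM at 17 WAF (log2 change -1.03), and cyclin-D3-3 LOC111367209, which drives entry into the cell cycle, rose to 32.8 FPKM at 21 WAF against 20.7 FPKM at 17 WAF (log2 change 0.64). Histone copies are alike and may share reads. Cytosolic ribosomal protein genes were close to the background, with 90 higher at 21 WAF, 102 lower and 147 that did not pass the test among 339 tested.

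Vacuolar proteases and oxygen scavengers had abundant risers. Cysteine proteinase 3 LOC111385176, a papain-type protease, had 1715, 1789.9 and 1755 FPKM at 21 WAF, against 932, 979 and 963 FPKM at 17 WAF (log2 change 0.87, SE 0.028, adjusted p = 4.5e-11). The vacuolar processing enzyme LOC111376116, which matures vacuolar proteins, rose to 798 FPKM at 21 WAF against 549 FPKM at 17 WAF (log2 change 0.54), and RD19A LOC111378038 to 982 FPKM at 21 WAF against 771 FPKM at 17 WAF. Autophagy protein 8i LOC111405710, of the autophagosome membrane, rose to 128 FPKM at 21 WAF against 70.9 FPKM at 17 WAF (log2 change 0.84). The list's counts were 32 higher at 21 WAF, 24 lower and 34 that did not pass the test. Catalase 3 LOC111371766, which breaks down hydrogen peroxide, had 1546, 1507 and 1494 FPKM at 21 WAF, against 708, 724 and 727 FPKM at 17 WAF (log2 change 1.07, SE 0.026, adjusted p = 5e-12). Of the oxygen-scavenging list, 24 were higher at 21 WAF, 15 were lower and 21 did not pass the test (median 0.072). A copper-zinc superoxide dismutase, LOC111378800, fell to 353 FPKM at 21 WAF against 525 FPKM at 17 WAF. In the pathogenesis-related list, 22 were higher at 21 WAF, 36 were lower and 25 did not pass the test.

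Single hormone genes changed by large factors although no hormone list leaned far. Cytokinin dehydrogenase 9 LOC111386059, which degrades cytokinins, had 9.79, 9.81 and 9.82 FPKM at 21 WAF, against 0.7, 0.58 and 0.75 FPKM at 17 WAF (log2 change 2.69, SE 0.046, adjusted p = 2.7e-13). It was under 1 FPKM in all 3 libraries at 17 WAF. Gibberellin 2-beta-dioxygenase 1 LOC111395582, which inactivates gibberellins, had 21.5, 21.4 and 21.4 FPKM at 21 WAF, against 67.05, 66.8 and 66.5 FPKM at 17 WAF (log2 change -1.60, SE 0.046, adjusted p = 1.7e-11). The synthesis genes gibberellin 3-beta-dioxygenase 1 LOC111380035 and 20 oxidase 1-D LOC111403906 rose, to 7.85 FPKM at 21 WAF against 2.57 FPKM at 17 WAF and to 6.69 FPKM at 21 WAF against 2.78 FPKM at 17 WAF. Steroid oxidase CYP85A1 LOC111409964, of brassinosteroid synthesis, rose to 8.59 FPKM at 21 WAF against 2.09 FPKM at 17 WAF (log2 change 1.63), and a brassinosteroid receptor kinase-type gene LOC111407279 fell to 4.55 FPKM at 21 WAF against 20.4 FPKM at 17 WAF (log2 change -1.95). In the gibberellin, brassinosteroid and cytokinin list, 12 were higher at 21 WAF, 12 were lower and 16 did not pass the test.

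ACC synthase LOC111380501, the committed step to ethylene, had 8.63, 9.27 and 8.83 FPKM at 21 WAF, against 29.5, 28.1 and 28.5 FPKM at 17 WAF (log2 change -1.58, SE 0.055, adjusted p = 9.3e-11). EIN3 genes, the central ethylene transcription factors, rose by little, LOC111401530 to 118 FPKM at 21 WAF against 86.4 FPKM at 17 WAF (log2 change 0.44). In the ethylene list, 7 were higher at 21 WAF, 5 were lower and 10 did not pass the test. Jasmonate methyltransferase LOC111394434, which makes methyl jasmonate, rose to 148 FPKM at 21 WAF against 63.5 FPKM at 17 WAF (log2 change 1.20, SE 0.038, adjusted p = 3.5e-11). TIFY repressors of jasmonate signalling split, LOC111366098 falling to 164 FPKM at 21 WAF against 315 FPKM at 17 WAF and LOC111372553 rising to 36.6 FPKM at 21 WAF against 17.3 FPKM at 17 WAF. In the jasmonate list, 11 were higher at 21 WAF, 7 were lower and 7 did not pass the test. Abscisic acid 8'-hydroxylase 1 LOC111404289, which degrades the hormone, fell to 6.42 FPKM at 21 WAF against 18.2 FPKM at 17 WAF (log2 change -1.37), and the abscisic stress-ripening pair went opposite ways, LOC111408761 with 1490.3 FPKM at 21 WAF against 901 FPKM at 17 WAF and LOC111408760 with 1289.7 FPKM at 21 WAF against 1701 FPKM at 17 WAF. In the abscisic acid list, 9 were higher at 21 WAF, 6 were lower and 5 did not pass the test. Auxin genes were even, with 33 higher at 21 WAF, 32 lower and 29 that did not pass the test, and auxin response factor 19 LOC111366891 fell to 4.19 FPKM at 21 WAF against 11.9 FPKM at 17 WAF (log2 change -1.32).

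Of the transcription factor families, the ERF and AP2 factors had most lower members: 28 higher at 21 WAF, 65 lower and 33 that did not pass the test among 126 tested (median -0.22). The most abundant, RAP2-3 LOC111371498, of a group of factors tied to low oxygen in Arabidopsis, went the other way, with 1719, 1673 and 1666 FPKM at 21 WAF, against 1012, 1010.3 and 1012 FPKM at 17 WAF (log2 change 0.74, SE 0.039, adjusted p = 4.6e-09). Of 3 tested ERF027-type genes, 2 fell and 1 was not called, the fallers being LOC111372960 with 4.86 FPKM at 21 WAF against 26.2 FPKM at 17 WAF (log2 change -2.21) and LOC111378971 with 13.4 FPKM at 21 WAF against 50.8 FPKM at 17 WAF (log2 change -1.85). The cytokinin response factor CRF1 LOC111386382 fell to 6.95 FPKM at 21 WAF against 28.7 FPKM at 17 WAF (log2 change -1.91), and a pair annotated as ERF104 rose, LOC111386756 to 15.6 FPKM at 21 WAF against 5.85 FPKM at 17 WAF and LOC111386758 to 8.48 FPKM at 21 WAF against 2.99 FPKM at 17 WAF.

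MYB, NAC, WRKY, bHLH and MADS-box families gave medians within 0.1 of 0, and single members are given by value. MYB308-type LOC111380806, whose Antirrhinum counterpart represses phenylpropanoid genes, had 13.5, 14.01 and 14.4 FPKM at 21 WAF, against 3.39, 3.05 and 2.88 FPKM at 17 WAF (log2 change 1.87, SE 0.064, adjusted p = 7.4e-11). MYB306-type LOC111400894, of a family linked to wax and cutin control, fell to 8.44 FPKM at 21 WAF against 26.6 FPKM at 17 WAF (log2 change -1.55). The NAC90-type pair fell, LOC111381277 to 211 FPKM at 21 WAF against 351 FPKM at 17 WAF and LOC111366263 to 6.62 FPKM at 21 WAF against 24.8 FPKM at 17 WAF, and NAC50-type LOC111377467 rose to 245 FPKM at 21 WAF against 137 FPKM at 17 WAF. WRKY23-type LOC111407693 fell to 34.4 FPKM at 21 WAF against 85.3 FPKM at 17 WAF and WRKY28-type LOC111372078 rose to 26.1 FPKM at 21 WAF against 11.3 FPKM at 17 WAF. The bHLH75-type gene LOC111399002 rose to 166 FPKM at 21 WAF against 88.6 FPKM at 17 WAF (log2 change 0.90, SE 0.021, adjusted p = 3.8e-12). AGAMOUS LOC111412195, a MADS-box regulator of carpel and fruit identity, had 360.0, 377 and 380.5 FPKM at 21 WAF, against 198, 201 and 197 FPKM at 17 WAF (log2 change 0.90, SE 0.028, adjusted p = 3.5e-11), and the other abundant AGAMOUS copy LOC111373696 differed little, with 204 FPKM at 21 WAF against 191 FPKM at 17 WAF (log2 change 0.091, adjusted p = 0.016). The call of that copy was lost under TPM scaling.

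Clock genes are listed because the labels do not give the hour of picking. Of 20 morning-phased genes, 9 were higher at 21 WAF, 6 were lower and 5 did not pass the test, and of 12 evening-phased ones, 3 were higher at 21 WAF, 3 were lower and 6 did not pass the test. The pseudo-response regulator APRR7 LOC111376891 had 70.5, 66.6 and 67.3 FPKM at 21 WAF, against 26.02, 28.3 and 27.7 FPKM at 17 WAF (log2 change 1.29, SE 0.041, adjusted p = 3.7e-11). LHY LOC111392782, a core morning factor, fell to 4.02 FPKM at 21 WAF against 5.54 FPKM at 17 WAF (log2 change -0.38), and GIGANTEA LOC111373055, an evening gene, rose to 40.1 FPKM at 21 WAF against 23.8 FPKM at 17 WAF (log2 change 0.73). The part of the hour of picking in the differences between the ages was not tested, and age and calendar date cannot be told apart in this design.

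The change over these 4 weeks was also set against the change over the later interval of the same length, 30 minus 26 WAF, which shares no library with it. The difference between both changes passed the test in 17684 genes, 67.7% of those tested, being more positive for the earlier interval in 6466 and more negative in 11218. For the first bark storage protein gene LOC111384066 the difference was 4.91 on the log2 scale, and the gene had means of 5417 FPKM (17 WAF), 41802 FPKM (21 WAF), 17715 FPKM (26 WAF) and 4539.7 FPKM (30 WAF). Beta-D-xylosidase 1 LOC111371327 and the nitrate transporter LOC111381300, both called higher, differ in what follows, the first having been given above and the second having means of 0.863 FPKM (17 WAF), 14.7 FPKM (21 WAF), 13.2 FPKM (26 WAF) and 34.6 FPKM (30 WAF). Kunitz trypsin inhibitor 2 LOC111383654 had means of 4.8 FPKM (17 WAF), 41.1 FPKM (21 WAF), 43.1 FPKM (26 WAF) and 223 FPKM (30 WAF), so 21 WAF was a low level beside its last one. SULFUR DEFICIENCY-INDUCED 1 LOC111384902, by contrast, was highest at 21 WAF, with means of 5.70 FPKM (17 WAF), 59.1 FPKM (21 WAF), 22.03 FPKM (26 WAF) and 13.1 FPKM (30 WAF).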

How the data were processed

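RNA-seq of olive mesocarp gave 12 libraries, 3 at each of 4 ages. The authors deposited a single table of FPKM, with a value for each gene in each library. Per the submitters' processing notes, RSEM, Bowtie2 2.2.5, StringTie 1.0.4 and HISAT2 2.0.4 were used, with no role given for each. Not given in the sources used here are the genome build, the annotation release and whether counting used strand. No depth is given and whole reads could not be recovered from the low values, where 8.82% to 15.1% of ratios of low genes between libraries lay within 0.1 log2 units of their most frequent value. Counting error per gene is therefore unknown. FPKM estimated for near-identical copies can share reads.

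Kept for testing were genes that reached 1 FPKM in 3 or more of the 12 libraries, and limma 3.58.1 in R 4.3.3 was fitted to log2(FPKM + 1), with a mean per age, all 12 libraries, a trended prior and Benjamini-Hochberg adjustment over 26131 genes. Log2 changes are on this scale, 21 minus 17 WAF, and understate the change of low genes. Genes are named as the largest 12 rises and 12 falls among called genes with a description other than uncharacterized, hypothetical or unknown, no overlap between ages and a mean of at least 10 FPKM at either age, the 10 most abundant at each age, and, in each list, the 3 most abundant and the 3 largest rises and falls with a mean of at least 5 FPKM. Genes outside this rule are marked. Gene names are the deposited descriptions, and all 37991 gene IDs with a description matched RefSeq gene names of assembly O_europaea_v1. The members and lists were chosen with earlier results of these data known.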

Additional observations from a re-analysis of the deposited data

Results flagged for a closer look

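The change over the 4 weeks to 21 WAF differed from the change over the later 4 weeks to 30 WAF in 17684 of 26131 genes, or 67.7% (limma, difference of both changes, adjusted p under 0.05). It was more positive in 6466 genes and more negative in 11218. This count was marked because 2 intervals of the same length, between different ages, gave different changes.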

How the results depend on the processing

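The counts of 5808 higher and 9378 lower genes stayed within 1.5 times under each alternative run. They were 5775 and 9223 with a pseudocount of 0.1, 5767 and 9735 with no filter, 4479 and 6903 with a mean of at least 5 FPKM, 6160 and 9873 with library weights, and 5867 and 9498 from the 6 libraries alone. No gene called in one direction was called in the other under any of these, under either scaling, or with any library left out. Leaving out each library in turn gave 5231 to 5917 higher genes, 8553 to 9549 lower genes and 17000 to 17477 genes differing between intervals. The deviations of same-letter libraries at 21 and 17 WAF correlated at -0.0789, -2.08e-05 and -0.0312, and those of other letters at -0.0556 to 0.0846. Deviations were centred within ages of 3 libraries, so these values cannot decide whether a letter marks a shared tree or harvest. With the letter as a replicate block the counts were 5722, 9281 and 17502. List medians near 0 turned sign in 19 of 55 lists, 10 under median-of-ratios scaling, 8 under TPM scaling and the plastid MEP pathway, at -0.027, with a mean of at least 5 FPKM. With both values larger than the spread between libraries these were gibberellin, brassinosteroid and cytokinin to 0.17 with a mean of at least 5 FPKM and 0.036 with median-of-ratios scaling, WRKY to 0.032 and 0.048, MYB to 0.023 and heat shock proteins to 0.043 with median-of-ratios scaling, and MADS-box and SPL to -0.028 with TPM scaling and -0.033 without 17 WAF replicate C, with 0.021 as the highest value when a library was left out. In the others at least one of both values lay within that spread: median-of-ratios scaling gave 0.065 for auxin, 0.059 for cytosolic and 0.041 for plastid and mitochondrial ribosomal proteins, 0.041 for ethylene, 0.0073 for oil assembly and 7e-04 for NAC, and TPM scaling gave -0.054 for bHLH, -0.037 for sugar, -0.030 for photorespiration, -0.014 for lipoxygenase, -0.0071 for autophagy, -0.0031 for jasmonate and -0.0013 for evening clock genes. Some of these, among them sugar, bHLH, ethylene and auxin, also turned sign when a single library was left out. The cause was not tested. FPKM without depth limits what can be said of low genes.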
